A study of Mus musculus with 6 samples.

Results

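NF-kB subunits, the enzymes and scaffolds that activate them and the inhibitors that switch them off were followed as a group of 32 genes in CD11b+ cells of mouse spleen. The genes were chosen by name, from the roles they have in the pathway, with earlier results of these data known. All 32 were found among the 55335 genes of the count table, and all 32 were among the 14849 genes tested. The cells came from wild-type (WT) mice after MI, taken here as myocardial infarction, or after MI with RDN, renal denervation, in which the nerves that run to the kidney are ablated (MI+RDN). Both groups carried the infarct, and no mice without one were analysed here. The cells had been sorted by flow cytometry, and each group held 3 biological replicates, 6 libraries in all. The sources used here do not give age, sex, the time after MI or the number of mice behind a replicate.

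NF-kB is a family of dimeric transcription factors that drive inflammatory and survival genes. In resting myeloid cells the dimers of RelA, c-Rel and the product of Nfkb1 are held in the cytoplasm by IkB proteins. Receptors of microbes and cytokines act through TRAF proteins and ubiquitin chains on the kinase TAK1 and the IKK complex, which mark IkB for destruction. C-type lectin receptors reach the same kinases through a scaffold of CARD9, BCL10 and MALT1. A slower, alternative arm runs through the kinase NIK (Map3k14), which leads to processing of the Nfkb2 product and its pairing with RelB. Active NF-kB induces its own brakes, among them IkB proteins and the ubiquitin-editing enzyme A20 (Tnfaip3), so that the RNA of these genes is often used as a record of pathway activity.

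The DNA element that these factors bind is known as the kB site, and its consensus of 10 bases was searched on both strands in the 250 bases before the start sites that RefSeq lists for GRCm38.p6. The libraries themselves had been aligned to GRCm39. RefSeq windows were found for 27 of the 32 genes, and 12 of these 27 (44.44%) held at least 1 match, against 8.23% of the 27025 genes with a window of that length. The list was chosen to include genes known to be induced by NF-kB, so the difference between these shares is no test. A match describes letters in these windows and does not show that a factor binds there. The windows shown are those of the inhibitors Tnfaip3, Nfkbie and Nfkbia, of the subunits Nfkb2 and Rel, and of Tnip1, which encodes a partner of A20. They are printed in the direction of the gene, with kB matches in capitals and overlapping matches run together. For each gene 1 window is printed. Nfkb2 had 3 windows, and all 3 held a match. Tnfaip3 had 2 windows, of which 1 held a match.

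Tnfaip3 (chr10:19015411-19015660, minus strand): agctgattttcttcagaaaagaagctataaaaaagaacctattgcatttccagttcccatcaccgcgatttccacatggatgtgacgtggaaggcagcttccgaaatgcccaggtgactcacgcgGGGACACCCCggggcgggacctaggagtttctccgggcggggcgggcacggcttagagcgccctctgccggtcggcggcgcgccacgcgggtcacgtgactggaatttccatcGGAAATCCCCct
Nfkbie (chr17:45555450-45555699, plus strand): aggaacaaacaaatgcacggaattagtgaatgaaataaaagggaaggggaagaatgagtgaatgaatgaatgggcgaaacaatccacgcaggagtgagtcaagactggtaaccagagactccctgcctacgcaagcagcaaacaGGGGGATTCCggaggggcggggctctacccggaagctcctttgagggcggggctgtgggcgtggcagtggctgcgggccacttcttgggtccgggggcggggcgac
Nfkbia (chr12:55492648-55492897, minus strand): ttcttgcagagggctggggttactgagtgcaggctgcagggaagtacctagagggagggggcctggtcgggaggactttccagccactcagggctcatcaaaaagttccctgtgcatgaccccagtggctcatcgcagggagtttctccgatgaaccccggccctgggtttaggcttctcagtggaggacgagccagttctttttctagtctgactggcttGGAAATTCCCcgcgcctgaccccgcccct
Nfkb2 (chr19:46304487-46304736, plus strand): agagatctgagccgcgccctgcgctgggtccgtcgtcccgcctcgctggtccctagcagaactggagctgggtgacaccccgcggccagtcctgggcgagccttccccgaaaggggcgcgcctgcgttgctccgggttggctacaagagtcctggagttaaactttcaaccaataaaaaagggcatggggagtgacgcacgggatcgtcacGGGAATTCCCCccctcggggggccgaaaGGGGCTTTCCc
Rel (chr11:23770970-23771219, minus strand): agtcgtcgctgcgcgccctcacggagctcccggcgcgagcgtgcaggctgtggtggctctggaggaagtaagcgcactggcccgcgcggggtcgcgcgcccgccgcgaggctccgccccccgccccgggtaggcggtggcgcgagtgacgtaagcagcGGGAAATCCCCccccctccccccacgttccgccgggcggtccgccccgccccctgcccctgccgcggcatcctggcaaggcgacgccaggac
Tnip1 (chr11:54962941-54963190, minus strand): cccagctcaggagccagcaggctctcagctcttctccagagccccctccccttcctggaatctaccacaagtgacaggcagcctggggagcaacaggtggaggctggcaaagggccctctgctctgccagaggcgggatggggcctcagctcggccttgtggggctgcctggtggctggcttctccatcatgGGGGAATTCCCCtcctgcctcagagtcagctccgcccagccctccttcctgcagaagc

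In the printed windows the match nearest to the start began 12 bases before it in Tnfaip3, 11 in Nfkb2 and 29 in Nfkbia. In Tnip1 3 overlapping matches formed the palindrome GGGGAATTCCCC, 58 to 56 bases before the start.

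The libraries held between 21663440 and 28013900 counts, and the 32 genes had 704 to 10911 counts in any 1 library. Levels are given as CPM, counts scaled to a common library size with TMM factors. The sort marker was present, with Itgam, which encodes CD11b, at 1133 ± 150 CPM in the MI libraries and 1598 ± 95.2 in MI+RDN (SD, n = 3), and all 6 markers of the CD11b gate were higher on average, with sums of 7032 to 8277 and 8157 to 9686 CPM. The spread between libraries of a group was a biological coefficient of variation of 20.7%. Markers of several cell types were present, and some of their sums differed between the groups. Summed markers of conventional dendritic cells ranged from 3854 to 5837 CPM in MI and from 2199 to 2498 in MI+RDN, with all 14 markers lower on average. Most of this sum came from the MHC class II genes H2-Aa, H2-Ab1 and H2-Eb1. Their means were 1461, 1105 and 1095 CPM in MI and 658, 536 and 495 in MI+RDN. Among the other markers of this list, Itgax had means of 422 and 314 CPM and Flt3 of 118 and 65.3. By edgeR 7 of the 14 had an adjusted p under 0.05, where 0.714% of all genes tested were lower and passed. These were the 3 class II genes, Ciita, Zbtb46, Cd209a and Clec10a, and Itgax and Flt3 did not pass. Of the 12 B cell markers 11 were lower on average, and their sum without Ighm ranged from 640.3 to 933 CPM in MI and from 331 to 522 in MI+RDN. With Ighm, the immunoglobulin heavy chain that makes up most of it, the sum ranged from 4356 to 8190 CPM in MI and from 5346 to 11791 in MI+RDN. All 13 T cell markers were lower on average, with sums of 84.8 to 112 and 37.1 to 63.8 CPM. Of these 13, 1 (Cd3d) had an edgeR adjusted p under 0.05, where 0.714% of all genes were lower and passed. Neutrophil markers were higher on average in 15 of 15, with sums of 16123 to 25316 CPM in MI and 29374 to 53729 in MI+RDN. In 7 of the 15 the groups overlapped. In the other 8 (53.3%) MI+RDN lay above MI without overlap, against 12.4% of all genes. By edgeR 2, Ly6g and Retnlg, had an adjusted p under 0.05, where 0.296% of all genes were higher and passed. Part of the spread came from Ngp, at 4784, 11481 and 1385 CPM in the MI+RDN libraries against 3473, 3071 and 1640 in MI. Of 7 erythroid markers 6 were lower on average, with sums of 386 to 775 CPM in MI and 171 to 244 in MI+RDN. The sums of the other lists overlapped between the groups. Red pulp macrophage markers, 9 of 11 lower on average, summed to 1284 to 1456 CPM in MI and 1043 to 1447 in MI+RDN, and plasmacytoid dendritic cell markers, 6 of 8 lower, to 209 to 218 and 179 to 221. Markers of Ly6C-high monocytes (6 of 10 lower) summed to 9219 to 10510 and 8013 to 10758 CPM. Those of Ly6C-low monocytes (4 of 9 lower) summed to 2104 to 2279 and 2014 to 2210, and those of NK cells (6 of 9 lower) to 184 to 204 and 158 to 233. In the monocyte lists Ly6c2 (369 ± 39.4 and 698 ± 73.9 CPM) and Pglyrp1 (211 ± 34.4 and 408 ± 66.9) were higher in MI+RDN (SD, n = 3). Their edgeR adjusted p was 0.0364 and 0.0462, and no other marker of these lists passed. None of these markers was at 0 in all libraries. In bulk RNA, fewer cells of a type and less RNA per cell cannot be told apart, and the part of these cell types in the results that follow was not tested.

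MI+RDN was compared with MI to ask how denervation of the kidney bears on NF-kB genes of splenic myeloid cells after an infarct. None of the 32 genes passed edgeR's quasi-likelihood test with Benjamini-Hochberg adjustment at 0.05 over all genes tested, where 1.01% of all genes did. The lowest adjusted p was 0.0511, for Tnfaip3, and 5 of the 32 were under 0.1 (Tnfaip3, Nfkbie, Traf1, Icam1 and Relb), against 5.35% of all genes. At an unadjusted p under 0.05 there were 12 of the 32, or 37.5%, with 10 lower and 2 higher in MI+RDN, against 19.9% of all genes (10.1% lower and 9.83% higher). In 13 of the 32 (40.6%) the 3 MI+RDN libraries and the 3 MI libraries did not overlap, against 26.2% of all genes. Of these, 10 lay below MI (13.7% of all genes) and 3 above it (12.4% of all genes). The median log2 fold change was -0.089, beside 0.0080 over all genes tested, and 22 of 32 values were negative. DESeq2's Wald test on the same counts called 8 of the 32 and 1165 of all genes, and limma-voom called 0 and 111. With only library totals as scaling, which moved the median of all genes to -0.13, edgeR called 8 of the 32, all lower, and 475 of all genes, of which 413 were lower. With the fit restricted to genes of at least 5 CPM on average it called 4 of the 32 (Tnfaip3, Nfkbie, Traf1 and Icam1, all lower) and 290 of 10242 genes, of which 223 were lower.

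**Figure D1:**
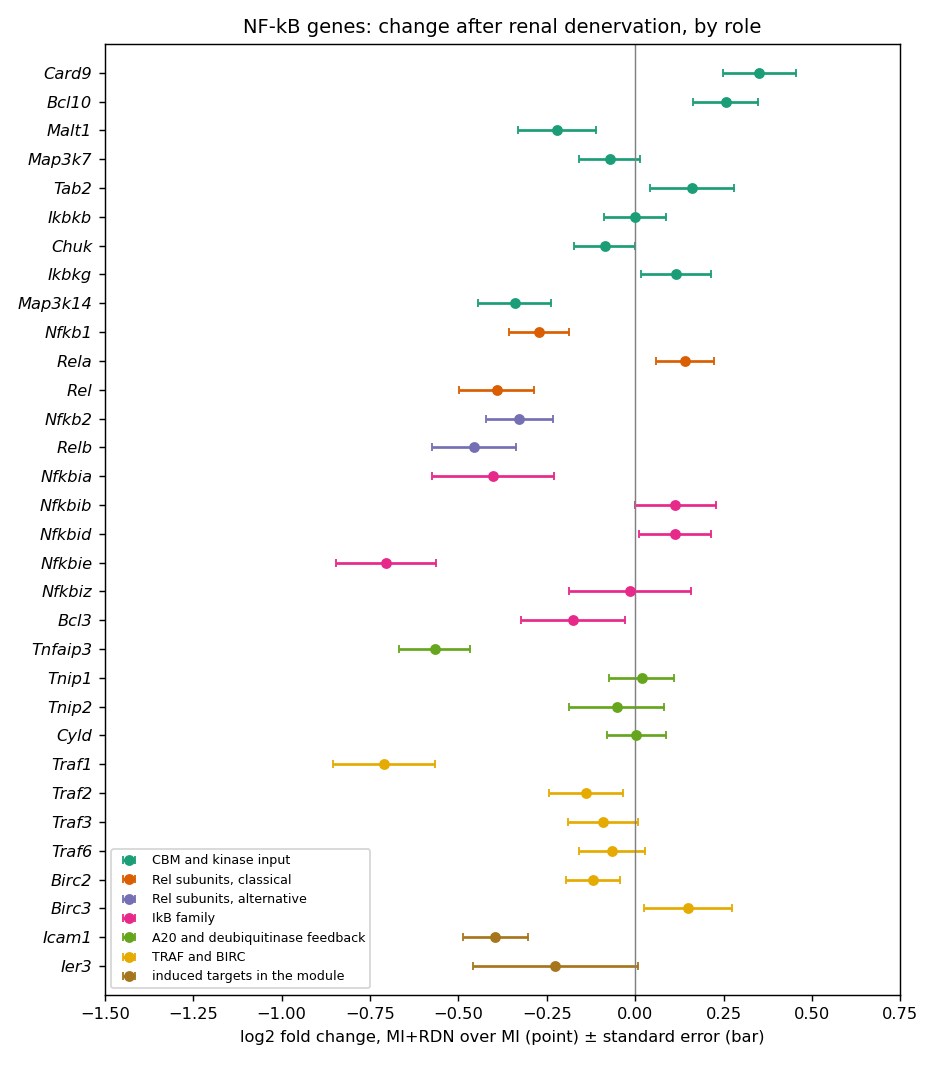
Fitted log2 fold change of MI+RDN over MI for the 32 genes (x axis), 1 gene a line and coloured by role, with bars for the standard error. Traf1, Nfkbie and Tnfaip3 lie farthest to the left at -0.71, -0.70 and -0.57, and Card9 farthest to the right at 0.35.

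Of the 9 genes of the CARD9 scaffold and the kinases, none passed, and their values pointed in different directions. Card9 encodes the scaffold that couples C-type lectin receptors of myeloid cells to NF-kB. It stood at 192, 186 and 157 CPM in the 3 MI libraries and at 232, 235 and 216 in the 3 MI+RDN libraries. The groups did not overlap, with MI+RDN above MI (log2 fold change 0.35, SE 0.10, with edgeR's Benjamini-Hochberg adjusted p = 0.125, and DESeq2 adjusted p = 0.0414). Limma-voom gave an adjusted p of 0.131, and edgeR gave 0.177 to 0.280 with 1 library left out. Bcl10, whose product forms filaments on the CARD scaffold, gave 104, 113 and 97.1 CPM in MI and 125, 118 and 131 in MI+RDN. These groups did not overlap either (log2 fold change 0.26, SE 0.092, with edgeR's Benjamini-Hochberg adjusted p = 0.181). Malt1, the protease of the complex, had 143, 134 and 161 CPM in MI and 139, 114 and 122 in MI+RDN, which overlapped (log2 fold change -0.22, SE 0.11). The values of these 3 partners did not share a sign. Within libraries, which needs no scaling, the log2 ratio of Card9 to Malt1 was 0.43, 0.48 and -0.033 in MI and 0.74, 1.04 and 0.82 in MI+RDN. This ratio restates the values just given and was not tested.

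Map3k14 encodes NIK, the kinase of the alternative arm. Its MI libraries held 132, 125 and 123 CPM and its MI+RDN libraries 112, 89.0 and 98.5 CPM. All 3 MI+RDN libraries lay below MI (log2 fold change -0.34, SE 0.10, with edgeR's Benjamini-Hochberg adjusted p = 0.130). The IKK subunits showed no such separation. Ikbkb, the catalytic subunit of the classical arm, stood at 341, 311 and 312 CPM in MI and at 324, 320 and 320 in MI+RDN (log2 fold change -0.00065, SE 0.088). Chuk, the other catalytic subunit, and Ikbkg, the regulatory subunit NEMO, had log2 fold changes of -0.086 and 0.12, and the value of Ikbkg was -0.021 without scaling factors. Map3k7, which encodes TAK1, and Tab2, its ubiquitin-binding partner, had -0.072 and 0.16. In all 5 of these genes the groups overlapped.

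Among the 5 Rel subunits, Nfkb1, Rel, Nfkb2 and Relb stood lower in MI+RDN without overlap and Rela stood higher without overlap, and none of the 5 passed. Relb (ENSMUSG00000002983), the subunit of the alternative arm, had 64.2, 77.5 and 71.9 CPM in MI and 49.7, 46.6 and 59.4 in MI+RDN. Its mean was 71.2 ± 6.71 CPM against 51.9 ± 6.64 (SD, n = 3), the largest difference of the 5 on the log2 scale (-0.46, SE 0.12, with edgeR's Benjamini-Hochberg adjusted p = 0.0991). Rel, which encodes c-Rel, the subunit known from lymphocytes and activated dendritic cells and macrophages, had 165, 171 and 186 CPM in MI and 145, 117 and 137 in MI+RDN (log2 fold change -0.39, SE 0.11, with edgeR's Benjamini-Hochberg adjusted p = 0.105). The MI values of Nfkb2, the precursor that pairs with RelB, lay close together at 153, 151 and 156 CPM, against 117, 113 and 136 in MI+RDN (log2 fold change -0.33, SE 0.095, with edgeR's Benjamini-Hochberg adjusted p = 0.123). Nfkb1, the partner of RelA in the classical dimer, had 360, 341 and 358 CPM in MI and 284, 298 and 296 in MI+RDN (log2 fold change -0.27, SE 0.085, with edgeR's Benjamini-Hochberg adjusted p = 0.142). DESeq2 called Relb, Rel and Nfkb1 (adjusted p = 0.0299, 0.0236 and 0.0456), and edgeR without scaling factors called Relb, Rel and Nfkb2 (0.0405, 0.0405 and 0.0441). Limma-voom called none of them. With 1 library left out edgeR called none either, with lowest adjusted p of 0.0758 for Relb, 0.129 for Rel, 0.148 for Nfkb1 and 0.0977 for Nfkb2.

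Rela, the main activating subunit of the classical arm, had 125, 119 and 111 CPM in MI and 130, 128 and 132 in MI+RDN. The 3 MI+RDN libraries lay just above MI (log2 fold change 0.14, SE 0.082, with edgeR's Benjamini-Hochberg adjusted p = 0.384), and the value was 0.0042 without scaling factors. Ratios to Rela inside each library set the subunits against each other without any scaling, and they were not tested. Since Rela lay above MI and the other subunits below it without overlap, the separation of these ratios follows from those values and adds nothing to them. The log2 ratio of Relb to Rela was -0.96, -0.62 and -0.62 in MI and -1.39, -1.45 and -1.16 in MI+RDN. For Rel over Rela it was 0.41, 0.53 and 0.75 in MI and 0.15, -0.13 and 0.046 in MI+RDN. The ratios of Nfkb1 and Nfkb2 to Rela also lay below MI in all 3 MI+RDN libraries, with mean differences of -0.41 and -0.47 on the log2 scale. Nfkb1, Nfkb2 and Relb all lay below MI, and ratios among them could fall either way. That of Nfkb2 to Nfkb1 overlapped between the groups, with a mean of -1.20 ± 0.032 for MI and -1.26 ± 0.14 for MI+RDN (SD, n = 3). The ratio of Relb to Nfkb2 overlapped as well.

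The 6 IkB genes ranged from Nfkbie, with 1 of the 2 largest differences among the 32 genes, to values near 0. Nfkbie (ENSMUSG00000023947) encodes IkB-epsilon, an induced inhibitor that restrains dimers of c-Rel and RelA. It had 62.0, 57.0 and 81.6 CPM in MI and 38.7, 41.0 and 43.5 in MI+RDN. The highest MI+RDN library lay below the lowest MI library, and the mean went from 66.9 ± 13 to 41.1 ± 2.41 CPM (SD, n = 3), which is 1.63-fold lower (log2 fold change -0.70, SE 0.14, with edgeR's Benjamini-Hochberg adjusted p = 0.0591). The adjusted p was 0.0449 with the fit restricted to a mean of at least 5 CPM, 0.0347 without scaling factors and 8.04e-04 with DESeq2. In other settings it did not pass, at 0.111 without a filter, 0.0618 with limma-voom and 0.0739 with the replicate block. With 1 library left out edgeR gave 0.0883 to 0.180. Nfkbia, which encodes IkB-alpha, the inhibitor that is destroyed and remade in each round of activation, had 311, 386 and 245 CPM in MI and 208, 239 and 267 in MI+RDN. These groups overlapped, since the lowest MI library stood below the highest MI+RDN library (log2 fold change -0.40, SE 0.17, with edgeR's Benjamini-Hochberg adjusted p = 0.250). Its value ranged from -0.55 to -0.23 on the log2 scale as single libraries were left out, -0.55 without MI replicate 3 and -0.23 without MI replicate 2.

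Nfkbib, which encodes IkB-beta, stood at 33.2 ± 3.34 CPM in the MI libraries and 35.9 ± 3.24 in MI+RDN (SD, n = 3). The nuclear IkB proteins act on NF-kB at its target genes rather than in the cytoplasm. Nfkbid, 1 of them, stood at 64.4 ± 3.97 and 69.6 ± 6.93 CPM, and the log2 fold changes of Nfkbib and Nfkbid (0.11 for each) turned to -0.024 for each without scaling factors. Nfkbiz, which encodes IkB-zeta, a coactivator of secondary response genes, had 318, 387 and 240 CPM in MI and 294, 346 and 295 in MI+RDN. Its MI+RDN libraries lay inside the MI range, with a log2 fold change of -0.015 (SE 0.17). Bcl3, an atypical IkB protein that works with the Nfkb1 and Nfkb2 products, had 85.0, 93.4 and 96.7 CPM in MI and 101, 68.9 and 74.1 in MI+RDN, where replicate 1 stood above all MI libraries. Its log2 fold change was -0.18 (SE 0.15).

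Of the 4 genes of ubiquitin-based feedback, Tnfaip3 separated the groups and the other 3 did not. Tnfaip3 (ENSMUSG00000019850), which encodes A20, had the lowest p of the 32 genes. It stood at 103, 112 and 95.8 CPM in MI and at 64.4, 76.2 and 68.9 in MI+RDN. The groups lay apart by more than their spread, with means of 104 ± 8.23 and 69.9 ± 5.98 CPM (SD, n = 3), a level 1.48-fold lower in MI+RDN (log2 fold change -0.57, SE 0.10, with edgeR's Benjamini-Hochberg adjusted p = 0.0511). That p lay just above the threshold and did not pass. It was 0.0378 with a mean of at least 5 CPM, 0.0246 without scaling factors, 5.92e-04 with DESeq2 and from 0.0584 to 0.149 with 1 library left out.

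Tnip1 and Tnip2, which encode ABIN proteins that bring A20 to ubiquitin chains, stood at 130 ± 9.43 and 54.8 ± 3.17 CPM in MI and at 131 ± 6.88 and 52.9 ± 9.64 in MI+RDN (SD, n = 3). Cyld, a deubiquitinase that also limits the pathway, stood at 109 ± 2.91 and 109 ± 6.25 CPM. The log2 fold changes of these 3 were 0.019, -0.052 and 0.0035, with standard errors of 0.091, 0.14 and 0.083. Inside each library the log2 ratio of Tnfaip3 to its partner Tnip1 was -0.40, -0.27 and -0.31 in MI and -1.11, -0.74 and -0.89 in MI+RDN. It is built from the same CPM and was not tested. Tnip1 has a kB palindrome in the window printed above and Tnfaip3 has 2 separate matches. Among genes with a RefSeq window, 4 of the 8 that lay below MI without overlap (Nfkb2, Nfkbie, Rel and Tnfaip3) held a kB match, as did 7 of the 16 whose groups overlapped and 1 of the 3 that lay above MI.

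**Figure D2:**
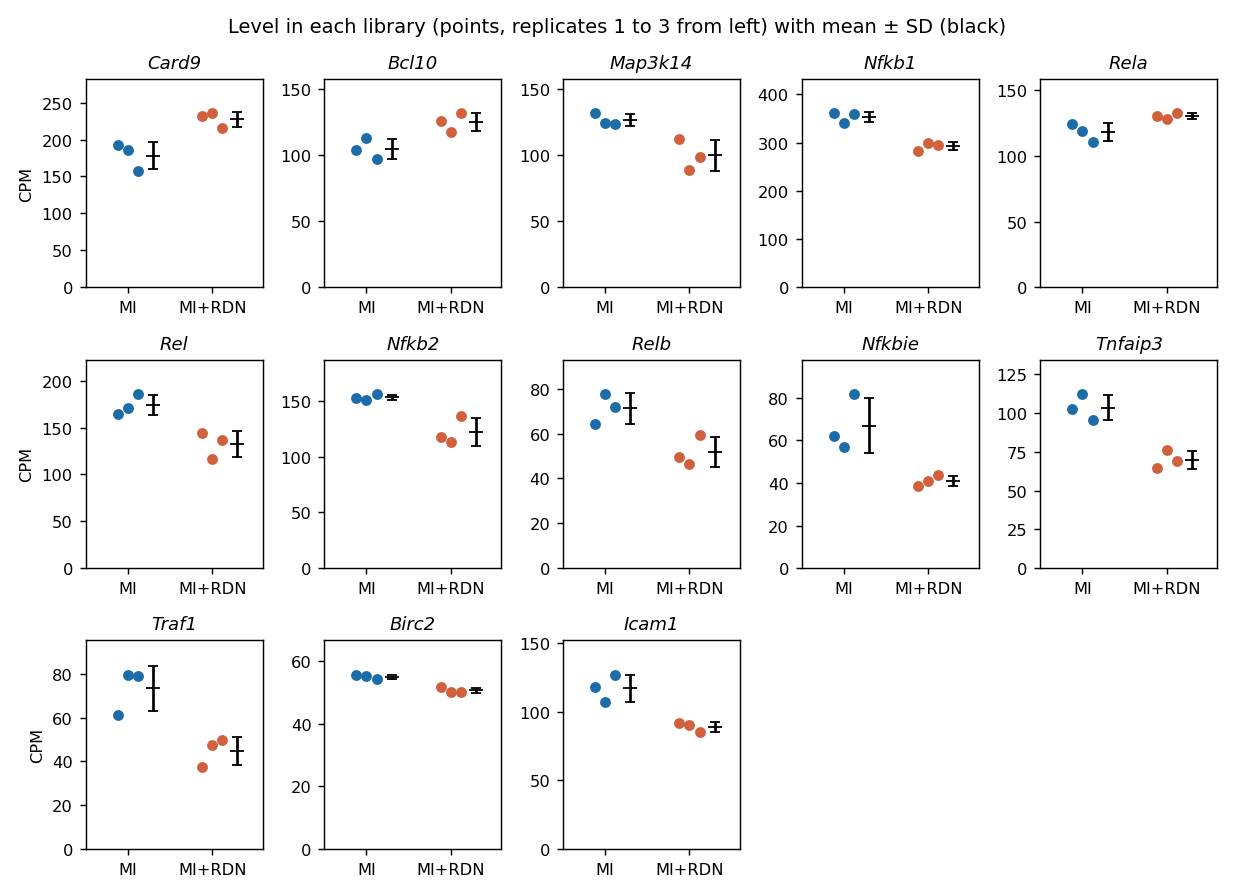
CPM in each library for the 13 NF-kB genes whose groups did not overlap, MI in blue and MI+RDN in orange, with the mean and SD of 3 libraries in black and the y axis from 0. Card9, Bcl10 and Rela lie higher in MI+RDN and the other 10 lower, with the widest gaps relative to the level in Traf1, Nfkbie and Tnfaip3.

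The TRAF and BIRC genes encode adaptors and ubiquitin ligases that link TNF family receptors to the kinases. Traf1 (ENSMUSG00000026875), an NF-kB-induced adaptor that lacks the ligase domain of its relatives, had the largest difference of the 32 genes. Its MI libraries held 61.3, 79.4 and 79.0 CPM and its MI+RDN libraries 37.5, 47.3 and 49.5. All 3 MI+RDN libraries lay below all 3 MI libraries, with means of 73.2 ± 10.3 and 44.7 ± 6.42 CPM (SD, n = 3), which is 1.64-fold lower (log2 fold change -0.71, SE 0.14, with edgeR's Benjamini-Hochberg adjusted p = 0.0610). The adjusted p was 0.0489 with a mean of at least 5 CPM, 0.0323 without scaling factors and 0.00113 with DESeq2. Traf1 did not pass without a filter or with limma-voom. With 1 library left out edgeR gave 0.0814 to 0.205.

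Traf2 and Traf3, which together with the BIRC ligases keep NIK low in resting cells, had log2 fold changes of -0.14 (SE 0.105) and -0.091 (SE 0.099). Traf6, the ligase downstream of Toll-like and IL-1 receptors, had -0.066 (SE 0.094). The groups overlapped in all 3 genes. Inside libraries the log2 ratio of Traf1 to Traf3 was -0.47, 0.015 and 0.073 in MI and -0.99, -0.52 and -0.72 in MI+RDN. It too is built from the same CPM and was not tested. Birc2, which encodes the ligase c-IAP1, had 55.5, 55.3 and 54.3 CPM in MI and 51.7, 50.1 and 50.3 in MI+RDN, groups that did not overlap although the difference was small (log2 fold change -0.12, SE 0.076, with edgeR's Benjamini-Hochberg adjusted p = 0.422). Birc3, its NF-kB-induced paralog, had 241, 275 and 221 CPM in MI and 265, 245 and 308 in MI+RDN, which overlapped (log2 fold change 0.15, SE 0.12).

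Icam1 and Ier3 are induced targets rather than parts of the pathway. Icam1, an adhesion molecule for leukocyte integrins, had 118, 107 and 127 CPM in MI and 92.1, 90.4 and 84.9 in MI+RDN. The groups did not overlap (log2 fold change -0.40, SE 0.092, with edgeR's Benjamini-Hochberg adjusted p = 0.0779). The adjusted p was 0.0498 with a mean of at least 5 CPM, 0.0400 without scaling factors and 0.00985 with DESeq2. Icam1 did not pass without a filter or with limma-voom, and edgeR gave 0.0968 to 0.222 with 1 library left out. Ier3, an early response gene of cell survival, had 95.4, 104 and 72.8 CPM in MI and 97.8, 83.4 and 51.4 in MI+RDN. Its libraries varied as much within the groups as between them (log2 fold change -0.23, SE 0.23).

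Levels of different genes were compared per length, as CPM per kb of exon with gene lengths from GENCODE M21 (GRCm38). Each length covered all annotated exons of a gene, and the order of the genes rests on that choice. Nfkbia was the highest of the 32 in both groups, at 199 ± 44.8 CPM per kb with MI and 151 ± 18.8 with MI+RDN (SD, n = 3). In MI it was followed by Card9 (85.8 ± 8.95) and Nfkb1 (85.6 ± 2.57), and then by Ier3, Tab2, Nfkbiz and Ikbkb, at 80.2 to 70.9 CPM per kb, neighbours that did not differ beyond their spread. Among the subunits in MI, Nfkb1 stood above Rela (43.5 ± 2.58), Nfkb2 (36.4 ± 0.564), Relb (32.2 ± 3.04) and Rel (23.3 ± 1.42). In MI+RDN the order of these 5 was the same, with Nfkb1 at 70.9 ± 1.92, Rela at 47.9 ± 0.814, Nfkb2 at 29.0 ± 2.92, Relb at 23.5 ± 3.0 and Rel at 17.8 ± 1.91 CPM per kb. Ikbkg was the lowest of the 32, at 6.38 ± 0.377 in MI and 6.91 ± 0.624 in MI+RDN. Traf6, Traf3, Map3k7 and Traf2 lay just above it in MI, at 10.1 to 12.5 CPM per kb. In CPM, without the length, Ikbkg (46.8 in MI) stood above Traf2 (38.2) and Nfkbib (33.2).

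**Figure D3:**
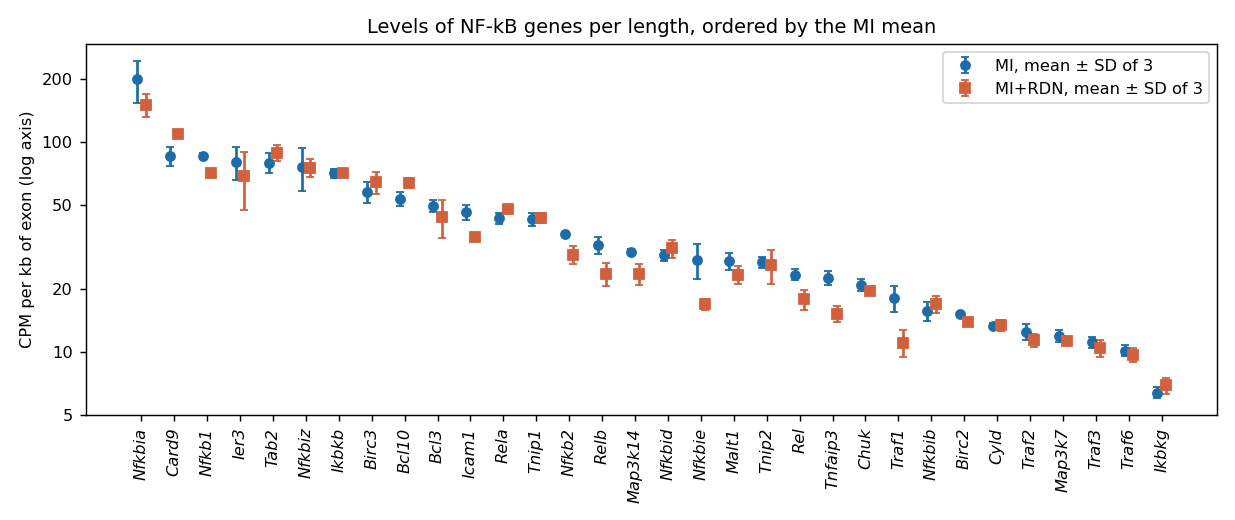
Levels of the 32 NF-kB genes per length of exon, in CPM per kb on a log axis, ordered by the MI mean, with MI as blue circles, MI+RDN as orange squares and bars for the SD of 3 libraries. Nfkbia stands highest at 199 in MI and 151 in MI+RDN, and Ikbkg lowest at 6.38 and 6.91.

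The wider pathway was read from 4 lists of 124 genes in all, of which 110 were tested. By edgeR's quasi-likelihood test, 3 fell and 1 rose (all genes, 0.714% lower and 0.296% higher), and the median log2 fold change was 0.053. Of 22 tested receptors and ligands, 2 fell. At an unadjusted edgeR p under 0.05 there were 9 (40.9%), 4 higher and 5 lower, against 19.9% of all genes. Tlr9, the endosomal receptor of microbial DNA, had 53.1, 52.1 and 52.5 CPM in MI and 36.1, 32.6 and 37.1 in MI+RDN, a 1.49-fold fall (log2 fold change -0.58, SE 0.088, Benjamini-Hochberg adjusted p = 0.0401). Tnfrsf13c, the BAFF receptor, which signals through the alternative arm in B cells, fell 2.35-fold from 19.6 ± 2.09 to 8.39 ± 2.28 CPM (SD, n = 3, edgeR Benjamini-Hochberg adjusted p = 0.0439), beside the lower B cell markers given above. None of the 21 tested adaptors and kinases near the receptors that are reported here passed by edgeR, with 7 (33.3%) at an unadjusted p under 0.05 against 19.9% of all genes, and the 2 with the lowest p were Prkcq and Ticam2. Prkcq, a protein kinase C best known downstream of the T cell receptor, stood at 11.5 ± 0.752 CPM in the MI libraries and at 6.55 ± 0.729 with MI+RDN (SD, n = 3), beside the lower T cell markers given above. Ticam2, an adaptor of Toll-like receptors also known as TRAM, stood at 61.5 ± 5.40 and 46.5 ± 6.02 CPM. DESeq2 called both (adjusted p = 9.48e-04 for Prkcq and 0.0497 for Ticam2). EdgeR called Prkcq without scaling factors (0.0314) and with a mean of at least 5 CPM (0.0416), against 0.0535 in the fit over all genes tested. With 1 library left out edgeR called neither, with lowest adjusted p of 0.0609 for Prkcq and 0.140 for Ticam2.

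None of 32 other kinases, ligases and regulators passed by edgeR, with 6 (18.8%) at an unadjusted p under 0.05 against 19.9% of all genes, and the 2 with the lowest p were Nlrc3, a cytosolic negative regulator, and Pdlim2, a nuclear ligase for RelA. Nlrc3 stood at 7.96 ± 0.365 CPM in the MI libraries and 4.42 ± 0.963 in MI+RDN, and Pdlim2 at 51.3 ± 5.32 and 78.7 ± 18.3 (SD, n = 3). DESeq2 called both (adjusted p = 0.0104 and 0.0181), and edgeR called Pdlim2 without MI+RDN replicate 2 (0.0486). The highest edgeR adjusted p with 1 library left out was 0.241 for Nlrc3 and 0.327 for Pdlim2. Of 35 tested induced targets 1 fell, 1 rose and 33 did not pass. At an unadjusted edgeR p under 0.05 there were 13 (37.1%), 7 higher and 6 lower, against 19.9% of all genes. Cd83, a surface protein of mature dendritic cells that B cells also carry, fell 2.20-fold beside the lower markers of both cell types given above, with 22.4, 24.3 and 31.1 CPM in MI and 12, 9.75 and 13.7 in MI+RDN (log2 fold change -1.14, SE 0.18, with edgeR's Benjamini-Hochberg adjusted p = 0.0401). Nos2, which makes nitric oxide in activated macrophages, rose from a low level, with 0.852, 0.406 and 0.523 CPM in MI and 2.93, 5.08 and 4.99 in MI+RDN (log2 fold change 2.86, SE 0.37, with edgeR's Benjamini-Hochberg adjusted p = 0.0316). With any 1 of the 6 libraries left out, in fits with fewer samples, Tlr9, Cd83 and Nos2 no longer passed, with highest adjusted p of 0.131, 0.131 and 0.120. Of these 6 fits, Tnfrsf13c passed in the one without MI+RDN replicate 3. Without a filter on low counts none of the 4 passed (adjusted p = 0.0793 for Tlr9, 0.0793 for Cd83, 0.0551 for Nos2 and 0.0829 for Tnfrsf13c), and with the replicate number as a block Tlr9 (0.0751) and Nos2 (0.0589) did not.

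**Figure D4:**
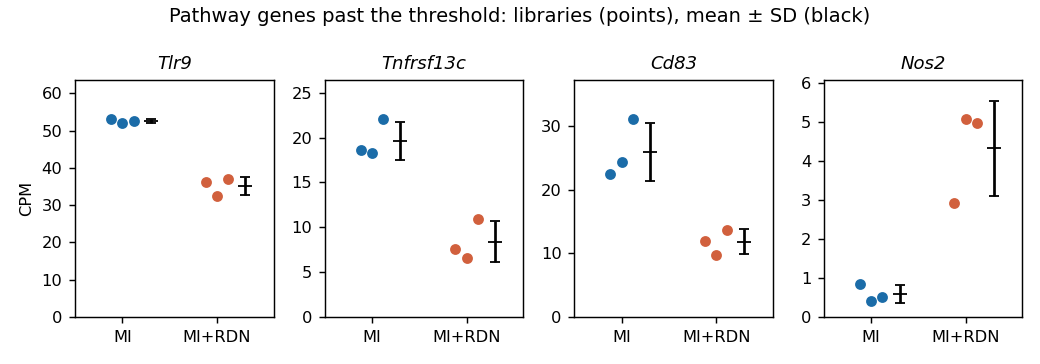
CPM in each library for Tlr9, Tnfrsf13c, Cd83 and Nos2, which passed the edgeR test, MI in blue and MI+RDN in orange, with the mean and SD of 3 libraries in black and y axes from 0. Tlr9 lies at 52.1 to 53.1 CPM in MI and 32.6 to 37.1 in MI+RDN, and Nos2 is the one of the 4 that lies higher in MI+RDN.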

How the data were processed

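RNA was extracted from sorted splenic CD11b+ cells of 3 MI and 3 MI+RDN replicates and made into strand-specific libraries, per the labels' protocols. The submitters' processing notes name FastQC 0.11.2, STAR and GRCm39. The authors deposited raw counts per Ensembl gene, without normalisation. The sources used here do not give the counting tool, annotation or strand setting, so reads of overlapping genes may be shared. Symbols were matched by gene ID (55154 of 55335 IDs, GENCODE M21).

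Genes were filtered with filterByExpr (14849 kept), scaled by TMM and tested with edgeR 4.0.16 in R 4.3.3 (quasi-likelihood F test, Benjamini-Hochberg over all genes, threshold 0.05, no covariates). Each standard error was obtained by dividing the size of the log2 fold change by the root of its F statistic. The procedure was tested on simulated data. P-values weigh the difference between the groups only against the spread of these 6 libraries within their groups. That spread may be technical in part. Alternatives used DESeq2 1.42.0, limma 3.58.1 (voom), other scalings and filters, the replicate number as a block, and each library left out. Figures used Python 3.11.15 and matplotlib 3.10.9.

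The 32 genes, the pathway lists and the marker lists were chosen with earlier results of these data known. All 32 genes are reported, and of the pathway lists those past the threshold are named, or the 2 with the lowest p where none passed. Marker lists are given as sums and counts, with some of their genes named. One pathway gene of the adaptor list is not reported here, and the counts over that list leave it out.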

Additional observations from a re-analysis of the deposited data

How the results depend on the processing

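Of all genes, 150 passed (44 higher and 106 lower), against 475 without scaling factors (62 and 413), 21 without a filter, 290 when genes had to average 5 CPM or more, 1165 with DESeq2's Wald test, 87 with the replicate block, and 0 to 67 with 1 library left out. By edgeR 0 genes passed when replicate 3 of MI was left out (2084 at an unadjusted p under 0.05) and 0 when replicate 1 of MI+RDN was (2323). Of the 32 NF-kB genes, 0 passed in the fit reported above, with DESeq2 size factors, without a filter, with limma-voom and with any 1 library left out (9 to 12 at an unadjusted p under 0.05). There were 8 without scaling factors, 8 with DESeq2's Wald test, 4 when genes had to average 5 CPM or more, and 1 (Traf1, adjusted p = 0.0464) with the replicate block. Correlations of deviations of same-numbered libraries were 0.018, -0.065 and 0.064, and not every library correlated best with its own number. The labels do not say whether replicate numbers pair the samples, and so few libraries cannot settle it. The median of the 32 was -0.23 without scaling factors and -0.12 to -0.075 with 1 library left out.

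Log2 fold changes that turned sign belonged to genes near 0. Without scaling factors they were -0.021 for Ikbkg, -0.024 for Nfkbib, -0.024 for Nfkbid, -0.12 for Tnip1 and -0.13 for Cyld. For Ikbkb they were 0.0040 with DESeq2 size factors, 0.0069 without a filter, 0.0040 with DESeq2's Wald test, 0.00043 with limma-voom and 0.00066 with the replicate block. Nfkbiz had 0.0018 with limma-voom and 0.0071 with the replicate block. With a mean of at least 5 CPM, Tnip1 had -0.013 and Cyld -0.027. With 1 library left out, values ranged from -0.023 to 0.045 for Ikbkb, from -0.18 to 0.16 for Nfkbiz, from -0.041 to 0.051 for Tnip1, from -0.20 to 0.038 for Tnip2 and from -0.029 to 0.031 for Cyld. The cause of these differences was not tested. The lowest raw count of any of the 32 genes in a library was 704, and the effect of depth was not tested.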

Other observations

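The spread among MI libraries was itself uneven across the NF-kB genes. The highest MI library exceeded the lowest by over 1.4-fold in 4 of the 32, 1.61-fold in Nfkbiz, 1.58-fold in Nfkbia, and 1.43-fold in both Nfkbie and Ier3. Nfkbiz, Nfkbia and Ier3 were highest in MI replicate 2 and lowest in MI replicate 3, while Nfkbie was highest in MI replicate 3. Inside libraries the log2 ratio of Nfkbia to Nfkbiz hardly varied within MI, at -0.031, -0.0019 and 0.028, and stood at -0.50, -0.54 and -0.15 in MI+RDN. These groups did not overlap, and the difference was not tested.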
